A study of Mus musculus with 2 samples.

Results

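The miR-290 to miR-295 cluster is a run of miRNA genes on mouse chromosome 7, and its miRNAs are described here in fetal liver. Its 7 members, Mir290a, Mir291a, Mir292 (also called Mir292a), Mir291b, Mir293, Mir294 and Mir295, were taken by gene name and position, not by level, and all 7 were found among the 1973 annotated miRNA genes measured. Small RNA was sequenced in 1 group of 2 libraries of healthy B6NCrl liver at embryonic day 15.5, a C57BL/6N stock, with no allele or treatment named in the labels. Replicate 2 was made from a pool of 62 embryos and replicate 1 from a pool of 78, both of mixed sex. There is no second condition, so the libraries were set against each other, and a pool averages its embryos.

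In mouse embryonic stem cells this cluster is the main source of miRNA. Its miRNAs pair with messages through the seed, the bases near the 5′ end of the mature RNA. Several of them, not all, speed entry into DNA synthesis by repressing inhibitors of the cell cycle such as Cdkn1a, Rbl2 and Lats2. The cluster is shut down as cells differentiate, and is known to stay active in germ cells and trophoblast. The values below give its level in fetal liver and how far the pools differ in it. The miR-302 cluster, active slightly later in the epiblast, shares its main seed. The miR-17 family of proliferating cells carries the same letters shifted by 1 base.

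The mature sequences (RefSeq, GRCm38.p6) are shown because the seed decides which members are taken to share targets. The table used held 13 mature RNAs over the 7 genes, 6 of them from the 3′ arm. The mature RNA miR-292a-3p was not used here, so Mir292 is in none of the comparisons of 3′ seeds, and the counts of shared letters and shared runs are of those 13. Each line is read 5′ to 3′, and capitals mark the seed, bases 2 to 8.
miR-290a-3p: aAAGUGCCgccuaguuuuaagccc
miR-291a-3p: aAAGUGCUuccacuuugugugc
miR-291b-3p: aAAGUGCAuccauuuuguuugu
miR-293-3p: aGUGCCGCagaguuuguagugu
miR-294-3p: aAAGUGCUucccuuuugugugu
miR-295-3p: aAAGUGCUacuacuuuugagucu
miR-302b-3p: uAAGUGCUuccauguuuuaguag
miR-302d-3p: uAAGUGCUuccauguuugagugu
miR-17-5p: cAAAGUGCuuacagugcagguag

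Mir291a, Mir294 and Mir295 shared the seed AAGUGCU with miR-302b-3p and miR-302d-3p, and no other mature RNA among 1738 in the table had it. The table does not hold every mature RNA, so a gene not named here is not shown to lack this seed. Mir290a (AAGUGCC) and Mir291b (AAGUGCA) differ from it in the last seed base. The seed of Mir293, GUGCCGC, differs from those of the other members compared. Its letters also occur in miR-290a-3p, further from the 5′ end, within a shared run of 8 bases. The letters AAGUGC stood at bases 2 to 7 in 8 of the 1738 mature RNAs (0.460%), 5 of them from this cluster, and at bases 3 to 8 in another 8, none from it. Counts were made per precursor gene, so they do not say which arm was sequenced.

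The 7 precursors lie on the plus strand of chromosome 7 between 3218626 and 3220841 (GRCm38), a span of 2216 bases. From left to right they are Mir290a (3218626 to 3218708), Mir291a (3218919 to 3219000), Mir292 (3219189 to 3219270), Mir291b (3219482 to 3219560), Mir293 (3220343 to 3220422), Mir294 (3220641 to 3220724) and Mir295 (3220773 to 3220841). The widest gap, 782 bases, separates Mir291b and Mir293, and the other gaps measure 48 to 218 bases. All except Mir290a lie inside D7Ertd143e, a noncoding RNA of the same strand in RefSeq (3218784 to 3221015). The same 6 lie opposite the 3′ UTR of Nlrp12, an inflammasome-family gene of the minus strand (3218784 to 3222475). On the minus strand the annotation also has Mir290b within Mir290a and Mir292b within Mir292, and neither is among the genes counted.

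**Figure D1:**
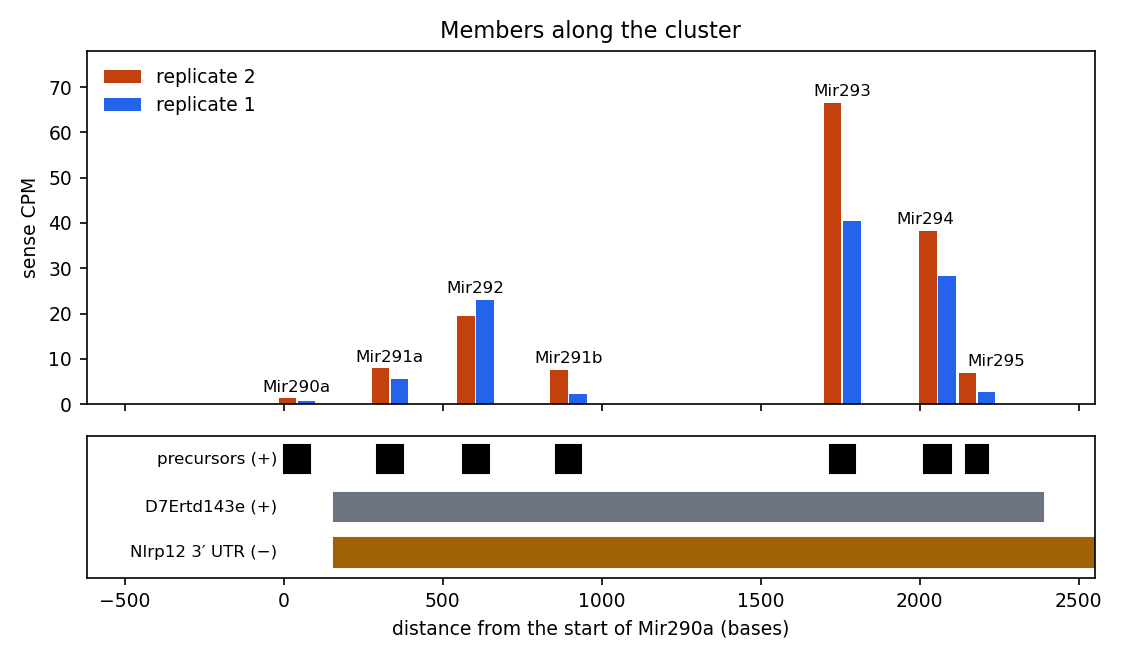
Sense CPM of each member (upper panel, bars, replicate 2 left of replicate 1) against the distance of its precursor from the start of Mir290a in bases, with the annotated features below, drawn to scale (bars in the upper panel are widened). The tallest bars are those of Mir293, with 66.6 and 40.3 CPM in replicates 2 and 1, and the Nlrp12 3′ UTR runs on past the right edge.

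The libraries held 3169882 sense miRNA counts (replicate 2) and 5529166 (replicate 1). One count is therefore worth 0.315 CPM (counts scaled to a library of 1000000 sense miRNA counts) in replicate 2 and 0.181 CPM in replicate 1. The hepatocyte miRNA Mir122 stood first in both, at 168741 and 182337 CPM. The 95% intervals given below (exact Poisson for counts, Clopper-Pearson for shares) cover counting error alone, with each read taken as independent. PCR copies were not collapsed by molecular identifiers, so the intervals may be too narrow, and the same limit holds for the test below. Where no read was counted, up to 3 remain possible.

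The cluster was present at a low level in both pools. It had 469 sense counts in replicate 2 and 568 in replicate 1. These were 0.0148% of sense counts in replicate 2 (0.0135 to 0.0162%) and 0.0103% in replicate 1 (0.00945 to 0.0112%), a mean of 0.0125% ± 0.00320 (SD, n = 2). The intervals do not overlap, and the higher share was in the shallower library. With at least 10 counts asked for in each library, 6 of the 7 members were detected, against 17.8% of all 1973 annotated genes. In bulk tissue, few cells with much of an miRNA and many cells with little cannot be told apart.

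Mir293, whose 3′ seed differed from those of the other members compared, was the most abundant member. It had 211 counts (66.6 CPM, interval 57.9 to 76.2) in replicate 2 and 223 counts (40.3 CPM, 35.2 to 46.0) in replicate 1. With a mean of 53.4 ± 18.5 CPM (SD, n = 2) it ranked 214 of 1973 genes. The intervals of the libraries do not overlap, and replicate 2 is higher. Mir293 alone made up 45.0% of the cluster in replicate 2 (40.4 to 49.6%) and 39.3% in replicate 1 (35.2 to 43.4%). For scale, Mir122 had 2535 times its counts in replicate 2 and 4521 times in replicate 1.

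Mir294 encodes the miRNA of the cluster best known for helping to reprogram mouse fibroblasts to pluripotency. It had 121 counts (38.2 CPM, 31.7 to 45.6) in replicate 2 and 156 counts (28.2 CPM, 24.0 to 33.0) in replicate 1. Here the intervals overlap, and replicate 2 again holds the higher value. Mir294 ranked 228 and made up 25.8% and 27.5% of the cluster in replicates 2 and 1.

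Mir292 was the exception to the direction of the rest. It had 62 counts (19.6 CPM, 15.0 to 25.1) in replicate 2 and 127 counts (23.0 CPM, 19.1 to 27.3) in replicate 1. The intervals overlap, and this was the single member of 7 whose CPM was higher in replicate 1. Its part of the cluster was 13.2% in replicate 2 (10.3 to 16.6%) and 22.4% in replicate 1 (19.0 to 26.0%), intervals that do not overlap.

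The remaining members were scarcer by a wide margin. Mir291a, which shares the seed of Mir294, had 25 counts (7.89 CPM) in replicate 2 and 31 counts (5.61 CPM) in replicate 1. Mir295, the last gene of the cluster and of the same seed, had 22 counts (6.94 CPM, 4.35 to 10.5) in replicate 2 and 15 counts (2.71 CPM, 1.52 to 4.47) in replicate 1. Mir294 and Mir295 lie 48 bases apart, and yet the counts of Mir294 were 5.50 times those of Mir295 in replicate 2 and 10.4 times in replicate 1.

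Mir291b, a paralogue of Mir291a, had 24 counts (7.57 CPM, 4.85 to 11.3) in replicate 2 and 12 counts (2.17 CPM, 1.12 to 3.79) in replicate 1. Its intervals do not overlap between the libraries. Mir291a had 1.04 times its counts in replicate 2 and 2.58 times in replicate 1. Mir290a, the first gene, had 4 counts in each library (1.26 and 0.723 CPM in replicates 2 and 1), below the minimum of 10. Mir290a, Mir291a, Mir291b and Mir295 together made up 16.0% of the cluster in replicate 2 and 10.9% in replicate 1.

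**Figure D2:**
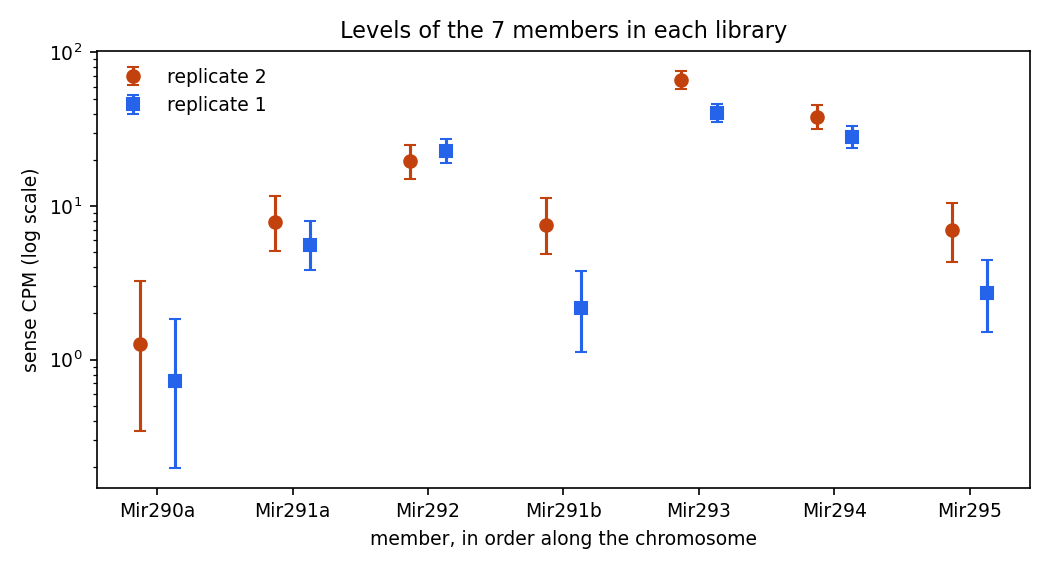
Sense CPM of each member on a log scale, in order along the chromosome, with replicate 2 (circles) left of replicate 1 (squares) and bars for exact 95% Poisson intervals of counting error. Mir293 is highest and Mir290a lowest in both libraries, and Mir292 is the member whose replicate 1 value lies above its replicate 2 value.

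By mean CPM the order was Mir293, Mir294, Mir292, Mir291a, Mir291b, Mir295 and Mir290a. Mir293 lay above Mir294, and Mir292 above Mir291a, with intervals that do not overlap in either library. Mir294 and Mir292 were separated in replicate 2 and overlapped in replicate 1. Mir291a, Mir291b and Mir295 were not separated from each other in replicate 2. In replicate 1 Mir295 overlapped both Mir291a and Mir291b, and only Mir291a and Mir291b were separated. Mir295 lay above Mir290a without overlap in replicate 2 but not in replicate 1. Read as CPM per kilobase of precursor, the order was the same except that Mir295 stood above Mir291b. A small RNA read covers a whole mature miRNA, so levels were otherwise not divided by length.

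Along the chromosome the counts were uneven. The 3 genes to the right of the 782-base gap, Mir293, Mir294 and Mir295, held 75.5% of the cluster in replicate 2 (71.3 to 79.3%) and 69.4% in replicate 1 (65.4 to 73.1%). Among these 3 the level decreased from left to right in both libraries, from Mir293 to Mir294 to Mir295. Of the 4 genes to the left of the gap, Mir292 was the highest in both libraries.

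Grouped by 3′ seed, the 3 genes with AAGUGCU (Mir291a, Mir294, Mir295) came to 53.0 CPM in replicate 2 and 36.5 CPM in replicate 1. Their share of the cluster was 35.8% in replicate 2 and 35.6% in replicate 1, well within each other's intervals. Mir302b and Mir302d, the miR-302 genes whose mature RNA in the table had this seed, came to 33.1 and 35.3 CPM in replicates 2 and 1. Other miR-302 genes are not shown to lack it, among them Mir302a, with 30.0 and 24.8 CPM in replicates 2 and 1. This sum may thus be incomplete, and whether it lies below that of the 3 members is not settled. Mir350, which has a mature RNA with the seed of miR-291b-3p, had 368 and 349 CPM in replicates 2 and 1, far above Mir291b. All these values count whole precursor genes. The arm behind the reads is not known, so none of them is the level of a seed.

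Reads that fit several places were left out of the counts, which matters for near-identical members. The closest pair, printed here for that reason, is the 5′ arms of Mir291a and Mir291b, with the shared stretch of 20 bases in capitals.
miR-291a-5p: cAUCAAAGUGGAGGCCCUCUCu
miR-291b-5p: gAUCAAAGUGGAGGCCCUCUCc
A read trimmed to that stretch fits both genes, so the counts of Mir291a and Mir291b are uncertain. No other pair of mature RNAs from different members shared a run longer than 11 bases. None of the 13 was identical to a mature RNA of a gene outside the cluster.

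Gene by gene, 3 of the 6 members tested were higher in replicate 2 and 0 were lower. The test was a two-sided exact binomial test on TMM-scaled sizes with Benjamini-Hochberg adjustment over 456 genes with at least 10 counts summed. It asks whether these libraries differ beyond counting error and says nothing of a condition. Over all 456 genes 18.2% were called higher and 20.8% lower in replicate 2, 39.0% in all. Of the 118 tested genes with a mean CPM in the members' own range (4.83 to 53.4), 14.4% were called higher and 15.3% lower, 29.7% in all.

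Mir291b was 3.40-fold higher in replicate 2, a log2 ratio of 1.77 (95% interval 0.71 to 2.90, exact binomial test, adjusted p = 0.00162). Mir295 was 2.49-fold higher, a log2 ratio of 1.32 (0.31 to 2.37, exact binomial test, adjusted p = 0.0185). Mir293 was 1.61-fold higher, a log2 ratio of 0.69 (0.41 to 0.96, exact binomial test, adjusted p = 5.78e-06). The larger ratios belong to the scarcer genes and have the wider intervals.

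Mir294, with a log2 ratio of 0.40 (0.05 to 0.75), did not pass the test (exact binomial test, adjusted p = 0.0613). It did pass with DESeq2 size factors (exact binomial test, adjusted p = 0.0467), with total counts as the scale (0.0396) or with at least 50 counts summed (0.0496). Mir291a at 0.46 (-0.36 to 1.26; adjusted p = 0.423) and Mir292 at -0.27 (-0.73 to 0.18; adjusted p = 0.411) did not pass in the exact binomial test. Mir290a, with 8 counts in all, was below the minimum for testing.

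The median log2 ratio of the 6 tested members was 0.57, against -0.04 over all 456 genes and -0.10 over the 118 of like level. Among all tested genes the middle 90% of ratios ran from -1.37 to 1.26, and among those 118 from -1.09 to 1.28. Mir291b and Mir295 lie above these ranges, while Mir293 and the others lie inside them. However, Mir291b (mean 4.87 CPM) and Mir295 (4.83 CPM) sit at the low end of those 118 genes, where ratios spread more widely. The ranges therefore do not show that these members stand out among genes of their own level. The members share 1 locus and are not independent of each other. Summed over the cluster, the log2 ratio was 0.49 (0.31 to 0.67, counting error only), and it was 0.35 without Mir293.

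**Figure D3:**
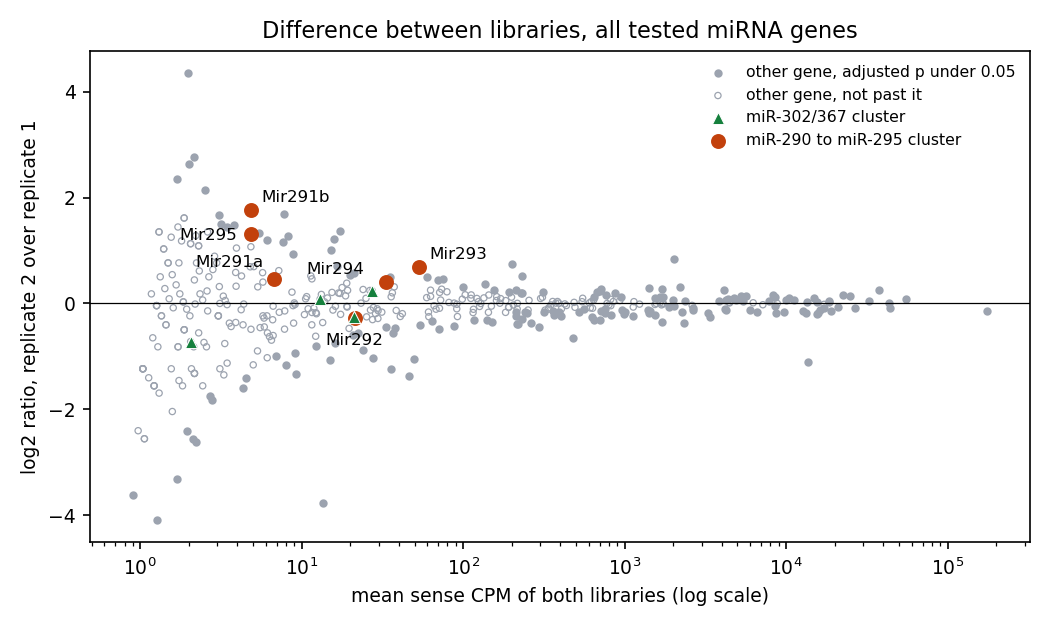
Log2 ratio of replicate 2 over replicate 1 (y axis, TMM-scaled) against mean sense CPM (x axis, log scale) for the 456 tested miRNA genes, with filled grey points for other genes past the adjusted threshold of 0.05. The labelled members lie at low CPM, 5 of 6 above 0, while the spread of all genes widens towards low CPM.

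The miR-302 cluster on chromosome 3, 2 genes of which have the seed AAGUGCU in the table, was set beside it. It had 205 counts (64.7 CPM) in replicate 2 and 346 counts (62.6 CPM) in replicate 1, so the miR-290 to miR-295 cluster stood 2.29 times above it in replicate 2 and 1.64 times in replicate 1. Mir302a led at 30.0 and 24.8 CPM in replicates 2 and 1, followed by Mir302d at 19.6 and 22.8 CPM and Mir302b at 13.6 and 12.5 CPM. Mir302c had 5 and 14 counts, and Mir367 had 0 in both. Of its 4 tested members 0 differed between the libraries by the exact binomial test, and 0 had an unadjusted p under 0.05. Its summed log2 ratio was 0.01 (-0.25 to 0.26), whose interval does not overlap that of the miR-290 to miR-295 cluster, but the difference itself was not tested.

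The miR-17 family, with the same letters shifted by 1 base, was of another order of abundance. Its 6 measured genes (Mir17, Mir20a, Mir20b, Mir93, Mir106a and Mir106b) came to 73379 CPM in replicate 2 and 68851 CPM in replicate 1, which is 496 and 670 times the miR-290 to miR-295 cluster. The highest was Mir17, with 33577 and 31642 CPM in replicates 2 and 1.

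**Figure D4:**
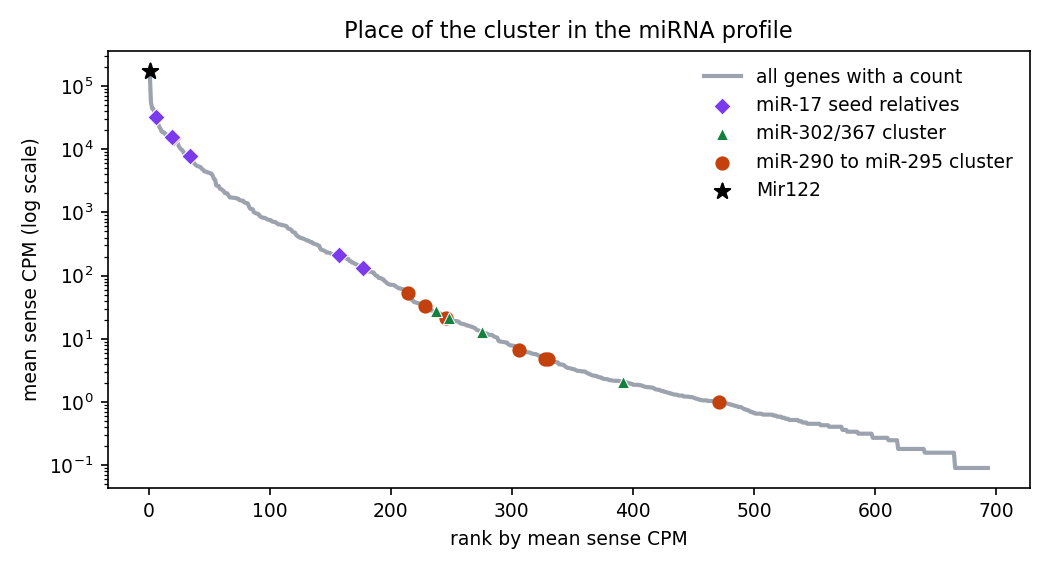
Mean sense CPM (y axis, log scale) against rank among miRNA genes (x axis) for all genes with a count, with the members of the cluster, the miR-302 cluster genes, the miR-17 seed relatives and Mir122 marked. The cluster runs from rank 214 (Mir293) to rank 471 (Mir290a), among the miR-302 genes and below every miR-17 relative.

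The genes nearest to Mir293 in log2(CPM + 1) over the 2 libraries were Mir615, a Hox cluster miRNA, at 71.3 and 49.0 CPM in replicates 2 and 1, Mir34a, a target of p53, at 69.1 and 56.6 CPM, and Mir345 at 62.5 and 56.4 CPM. Their distances from Mir293 were 0.29, 0.48 and 0.48. With 2 libraries this says only that their levels are alike.

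Some miRNAs of other tissues also differed between the pools. For scale, 18.2% of all 456 tested genes were called higher and 20.8% lower in replicate 2. The test covers counting error only, so small ratios pass it at high counts. The skeletal muscle list came to 2653 CPM in replicate 2 and 1439 CPM in replicate 1. Both tested members, Mir206 and Mir133b, were higher in replicate 2, and Mir1a-1 and Mir133a-1 had 0 or 1 count. Reads that fit several places were left out, so counts near 0 in these lists do not show absence. The male germ line list on the X chromosome had 26 counts in replicate 2 and 10 in replicate 1, with 9 of 13 members at 0 in both and 0 detected. Its 1 tested member, Mir741, did not pass (exact binomial test, adjusted p = 0.0915). The Sfmbt2 array, a rodent cluster of trophoblast and stem cells, came to 2654 CPM in replicate 2 and 2408 CPM in replicate 1 over 8 measured members of 10, of which 4 were tested, 2 were higher and 0 lower. The epithelial list went the other way, with 3266 and 4052 CPM in replicates 2 and 1 and 5 of 5 members lower in replicate 2. Among miRNAs of the liver's own cells, the lists of hepatocytes (3 of 3 lower in replicate 2), erythroid cells (2 of 3 higher and 1 lower) and endothelium (Mir126a, lower) came to 171884, 18579 and 43586 CPM in replicate 2, against 185817, 27150 and 44812 CPM in replicate 1. Members of a list did not move alike. In the hepatocyte list the log2 ratios were -0.15 for Mir122, -0.17 for Mir192 and -3.78 for Mir802, which had 6 and 140 counts in replicates 2 and 1. In the erythroid list they were 0.16 for both Mir144 and Mir486 and -1.11 for Mir451a. The part of any of these lists in the levels of the cluster was not tested.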

How the data were processed

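The authors deposited 1 table per library of raw counts, whole numbers of reads for each annotated miRNA gene, counted on assembly mm10 with annotation M4, per the text deposited beside the tables. No name of an aligner, counter or trimmer is given in the sources used here. Sense counts (the gene's own strand) were used. Reads mapping to several places were 31.1% of all reads in replicate 2 and 29.3% in replicate 1, unmapped reads 21.4% and 23.9%, and reads outside annotated genes 6.23% and 5.40%. None entered a library size. Names and positions came from release M21 on the same assembly: 1894 of 1973 identifiers matched, and the 7 members matched in version too.

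CPM used total sense counts. Ratios and the exact binomial test (scipy 1.17.1) used TMM-scaled sizes (edgeR 4.0.16, R 4.3.3, genes with at least 10 counts in both libraries). DESeq2 1.42.0 gave alternative size factors. The test step was run on simulated counts with set ratios and counting error only. Spread between pools was not simulated, so this checks how the step works and not its error rate in these libraries. The chi-square over genes was 68.6 per degree of freedom, so the tables are not 1 library deposited again. Per the labels the replicates are biological, but with 2 pools the spread may be technical in part. Named genes are the members, the fixed lists, Mir122 and the 3 genes nearest to Mir293. Members and lists were chosen with earlier results of these data known.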

Additional observations from a re-analysis of the deposited data

Results flagged for a closer look

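Reads on the strand opposite to a member lay outside the sense counts, and at Mir292 they exceeded the 3 counts that a count of 0 allows. Mir292 had 7 opposite-strand counts in replicate 2, 10.1% of its reads on both strands (4.18 to 19.8%), and 13 in replicate 1, 9.29% (5.04 to 15.4%). The other 6 members had 0 opposite-strand counts in both libraries, which for Mir293 allows up to 1.42% in replicate 2 and 1.35% in replicate 1. For Mir291a it allows up to 12.0% and 9.68% in replicates 2 and 1, and for Mir291b, Mir295 and Mir290a still more. A share like that of Mir292 thus remains possible at those scarcer members. Of the 352 detected genes, 10 (2.84%) had more than 3 opposite-strand counts in both libraries. Summed over all miRNA genes, opposite-strand counts were 9.12% of counts on both strands in replicate 2 and 8.77% in replicate 1. That sum is not the share at a typical gene, since few detected genes had more than 3 such counts. Mir122, the most abundant gene, had 3 in replicate 2 and 2 in replicate 1. Mir292b is annotated on that strand within Mir292, and its mature RNA is printed beside the one of Mir292 that it faces, with the 19 complementary bases in capitals.
miR-292a-5p: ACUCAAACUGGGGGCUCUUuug
miR-292b-3p: AAGAGCCCCCAGUUUGAGUau
The counts do not say which bases of the locus the opposite reads covered.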

How the results depend on the processing

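No result of the cluster changed direction under the alternatives tried. Its share of counts was 0.00719% without Mir293 and 0.00607% when taken over all mapped reads, a total chosen after seeing the data, against 0.0125%, and it ranged from 0.0103% to 0.0148% with 1 library left out. The miR-302 cluster share was 0.00579% with both strands counted, and 0.00626% to 0.00647% with 1 library left out. Detected members stayed at 6, or 4 with a minimum of 20 counts. Members called were 4 with DESeq2 size factors or total counts, which adds Mir294, and 2 with at least 50 counts summed, when Mir291b and Mir295 are not tested. The summed log2 ratio ran from 0.35 (without Mir293) to 0.65 (without Mir292, chosen after seeing the data). With replicate 2 left out, or per kilobase, 5 of 7 members kept their place in the order. No paired analysis was possible because there is 1 group. Mir291b, Mir295 and Mir290a rest on 4 to 24 counts per library, which limits their ratios most.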
